A study of Homo sapiens with 12 samples.

Results

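The MYC, MAX and MXD network is a family of basic helix-loop-helix leucine zipper transcription factors, represented here by 10 listed genes (MYC, MYCN, MAX, MXD1, MXD3, MXD4, MXI1, MNT, MLX and MLXIP) among the 55882 gene symbols of the count table. All 10 were in the table, and 9 of them passed the filter on low counts to be tested among 14799 genes. MYCN was the exception, with 0 to 7 counts per library. The members were followed across 4 groups of T47D, an established human breast cancer line that expresses the estrogen receptor. Control cells, whose genotype the labels give as WT, received ethanol vehicle or 2 nM estradiol, and cells with ectopic expression of HOXB13, a homeobox transcription factor, received the same 2 treatments, each for 24 h after 72 h in medium with 10% charcoal-stripped serum. Each group had 3 libraries. The labels do not say how HOXB13 was introduced, whether the control cells carried an empty vector, whether the HOXB13 cells are 1 clone, or whether each replicate is its own culture. The p-values therefore reflect variation among these libraries only, and part of that may be technical.

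MYC and its relative MYCN bind DNA only as partners of MAX, mainly at the E-box CACGTG, and raise transcription of genes for growth, ribosome production and nucleotide synthesis. MXD1, MXI1, MXD3, MXD4 and MNT also pair with MAX at E-boxes, but recruit the SIN3 and histone deacetylase corepressor, so they oppose MYC. Some MXD proteins, such as MXD1, are known for their rise in cells that leave the cell cycle, but this does not hold for all of them. MLX is a second shared partner, for MLXIP (also called MondoA) and for some of the repressors, and MLXIP with MLX responds to glucose-derived metabolites by raising TXNIP. MYC is a classical early target of the estrogen receptor in breast cancer cells.

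The upstream sequences are shown for MXD3 and MXD4, a pair of closely related repressor genes whose RNA moved in opposite directions with estradiol, and for MNT and MLX, the other members whose window held an E-box. Each is the 250 bases before the annotated gene start in RefSeq (GRCh38.p14), 5′ to 3′ on the gene's strand. MXD3 is read from chr5:177312753-177313002 (minus strand), MXD4 from chr4:2262110-2262359 (minus strand), MNT from chr17:2401061-2401310 (minus strand) and MLX from chr17:42566850-42567099 (plus strand). Capitals mark the estrogen response half-site GGTCA in MXD3 and the E-box CACGTG in the other 3.
MXD3: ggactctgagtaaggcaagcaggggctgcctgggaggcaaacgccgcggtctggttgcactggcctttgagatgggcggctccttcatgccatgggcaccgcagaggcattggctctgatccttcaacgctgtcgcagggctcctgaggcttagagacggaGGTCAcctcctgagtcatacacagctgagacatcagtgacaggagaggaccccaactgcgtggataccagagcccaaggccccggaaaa
MXD4: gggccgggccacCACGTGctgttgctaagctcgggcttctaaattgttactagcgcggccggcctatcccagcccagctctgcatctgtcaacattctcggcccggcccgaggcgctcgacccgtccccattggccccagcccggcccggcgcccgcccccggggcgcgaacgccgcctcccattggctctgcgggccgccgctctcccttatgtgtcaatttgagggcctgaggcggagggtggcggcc
MNT: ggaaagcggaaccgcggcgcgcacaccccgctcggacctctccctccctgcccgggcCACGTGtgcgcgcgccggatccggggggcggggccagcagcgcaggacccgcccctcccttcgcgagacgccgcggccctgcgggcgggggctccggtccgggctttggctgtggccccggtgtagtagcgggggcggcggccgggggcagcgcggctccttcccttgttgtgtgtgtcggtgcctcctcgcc
MLX: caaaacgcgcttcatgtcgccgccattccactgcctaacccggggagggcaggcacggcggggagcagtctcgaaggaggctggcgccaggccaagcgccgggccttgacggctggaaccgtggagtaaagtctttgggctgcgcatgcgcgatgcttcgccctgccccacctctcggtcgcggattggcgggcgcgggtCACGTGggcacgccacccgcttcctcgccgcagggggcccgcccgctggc
Of the 10 members, 9 had an entry, with 12 windows in all because MAX and MXI1 have several starts; MYC had no entry. The E-box was in the windows of 3 members, against 6.34% of all 35116 windows. The half-site GGTCA, searched on both strands, was in those of 5 members (MAX, MXD1, MXD3, MXI1 and MLX), against 32.6% of all windows, and in MLX it shares bases with the E-box. The full estrogen response element GGTCANNNTGACC, which contains the half-site, was in 0 members and 0.0399% of all windows. An E2F site, TTTCCCGC, TTTCGCGC, TTTGCCGC or TTTGGCGC on either strand, was in the window of MYCN alone, against 2.79% of all windows. The percentages count windows and not genes, and a member with several windows can match in any of them. For MAX and MXI1 the half-site was in only 1 window each. These matches describe letters in a short window and do not show binding.

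Libraries held 17679824 to 21385996 counts. HOXB13 had 92 to 112 counts in each library of the HOXB13 cells and 0 to 2 in each control library. All 10 luminal epithelial markers listed for the check, such as KRT8 and GATA3, exceeded 10 normalised CPM (counts scaled to library size) in every library. With estradiol, the cadherin gene CDH1 fell in control cells (log2 fold change −0.44, edgeR adjusted p = 0.0129) and in HOXB13 cells (−0.56, adjusted p = 0.00340). The luminal factor genes GATA3 (−0.43, adjusted p = 0.0100) and FOXA1 (−0.38, adjusted p = 0.0347), named because of their values, fell in HOXB13 cells and had −0.30 and −0.32 in control cells (adjusted p = 0.0574 and 0.0669). The other 7 of these markers were not called in either genotype in this fit. With the replicate number as a block, 3 of the 10 rose and 3 fell in control cells. Among them, GATA3 and FOXA1 fell (edgeR adjusted p = 0.00277 and 0.000447). In HOXB13 cells 1 rose and 4 fell. The block called 17.5% and 15.5% of all tested genes as risen and 16.5% and 15% as fallen, in control and HOXB13 cells. The part of the called markers in the network results was not tested. Of the 17 markers of blood, vascular, stromal, fat and other cells in the table, 10 stayed under 1 CPM in every library, with the endothelial cadherin CDH5 and the globin HBB at 0 counts. Their summed level was 70.6 to 75.2, 67.8 to 74.5, 62.9 to 67.0 and 61.9 to 70.6 CPM in control vehicle, control estradiol, HOXB13 vehicle and HOXB13 estradiol libraries, most of it from the collagen gene COL1A1. In the libraries numbered 2, 1 from each group, 17.9% of the tested genes had the lowest and 16.8% the highest level of the group in all 4 groups, and results are also given without these libraries where this changes a call.

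Estradiol raised MYC and MXD3 and lowered MXD4 in both genotypes, and the shared partner MAX was not called. Of the 9 tested members, 2 rose and 1 fell in control cells (quasi-likelihood test in edgeR, threshold 0.05 on the p adjusted by Benjamini and Hochberg), where 15.4% of all tested genes were called. In HOXB13 cells 2 rose and 1 fell again, against 13.6% of all tested genes, and these were the same 3 genes. The median log2 fold change of the members was 0.06 in control cells and 0.05 in HOXB13 cells, next to −0.01 for all tested genes in both. The CPM of the groups did not overlap for 5 members in each genotype, as for 30.9% and 29.9% of all tested genes. In bulk RNA, a change in the share of cells that express a gene and a change in RNA per cell cannot be told apart.

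**Figure D1:**
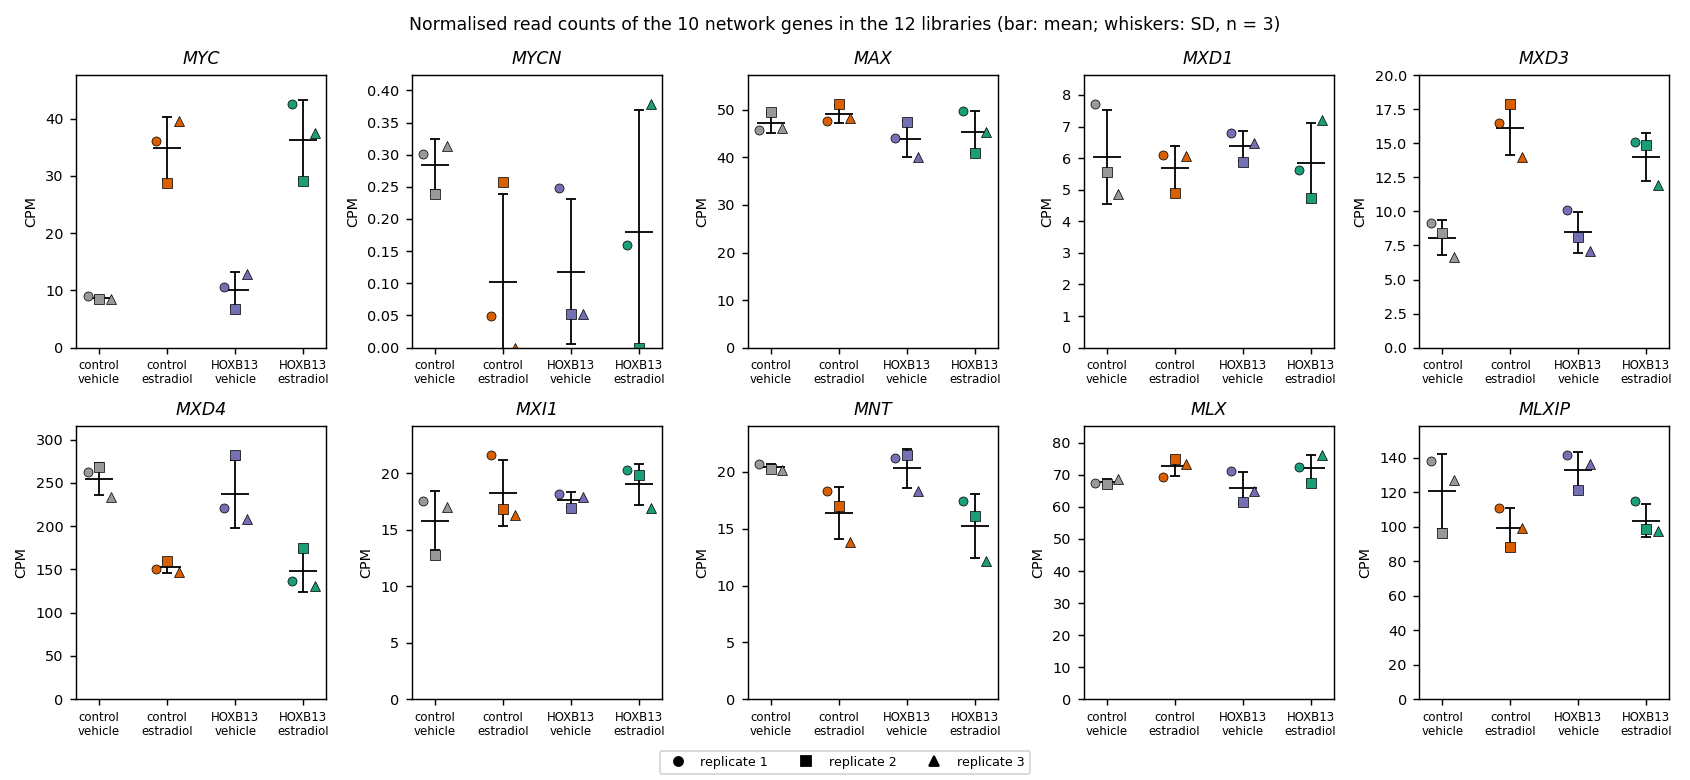
CPM of each network gene (vertical axis, from 0, a separate scale per gene) in the 4 groups, with a point per library shaped by replicate number, the mean as a bar and the SD as whiskers (n = 3; whiskers that would pass below 0 end at the axis). MYC lies between 6.81 and 12.9 CPM in all vehicle libraries and between 28.7 and 42.6 CPM in all estradiol libraries, whereas MXD4 falls from 208 CPM or more to 175 CPM or less.

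MYC, the activator of the network, had 9.03, 8.48 and 8.56 CPM in the control vehicle libraries and 36.1, 28.7 and 39.5 CPM in the control estradiol libraries, numbered 1 to 3. In HOXB13 cells it had 10.6, 6.81 and 12.9 CPM in vehicle and 42.6, 29.03 and 37.4 CPM in estradiol. Every estradiol library was above every vehicle library, and library 2 was the lowest of its group in all 4 groups. The log2 fold change was 2.00 ± 0.21 (SE) in control cells (4.004-fold, adjusted p = 2.53e-05) and 1.85 ± 0.21 in HOXB13 cells (3.60-fold, adjusted p = 7.09e-05). In vehicle, the mean MYC level exceeded that of 35.3% of the tested genes in control cells, and in estradiol that of 62.2%. These shares use CPM without correction for gene length, so only their change between the treatments can be read. MYCN, the relative best known from neuroblastoma, had 17 counts over the 3 control vehicle libraries, 6 in control estradiol, 7 in HOXB13 vehicle and 10 in HOXB13 estradiol. These sums are 0.283, 0.0992, 0.120 and 0.177 CPM, with exact 95% Poisson intervals, which cover counting error only, of 0.165 to 0.454, 0.0364 to 0.216, 0.0484 to 0.248 and 0.0849 to 0.326 CPM. MYCN was thus barely detected in any group and was not tested.

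MAX, the partner shared by MYC and the MXD proteins, had 45.8, 49.6 and 46.1 CPM in control vehicle and 47.7, 51.3 and 48.3 CPM in control estradiol libraries. In HOXB13 cells its levels were 44.0, 47.5 and 40.0 CPM in vehicle and 49.8, 41.0 and 45.4 CPM in estradiol. The groups overlapped in both genotypes. Its log2 fold change was 0.06 (95% interval −0.17 to 0.28; adjusted p = 0.777) in control cells and 0.05 (−0.18 to 0.28; adjusted p = 0.821) in HOXB13 cells by edgeR, so a change of MAX as large as that of MYC lies far outside its interval.

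MXD4 and MXD3, both MAX-binding repressors, moved in opposite directions. MXD4 had 262, 268 and 234 CPM in control vehicle and 151, 159.8 and 147 CPM in control estradiol libraries, and 221, 282 and 208 CPM in HOXB13 vehicle against 137, 175 and 131 CPM in HOXB13 estradiol libraries. All 6 estradiol libraries were below all 6 vehicle libraries, and library 2 was the highest of its group in all 4 groups. It fell by 0.74 ± 0.13 (SE) on the log2 scale in control cells (adjusted p = 0.00160) and by 0.68 ± 0.13 in HOXB13 cells (adjusted p = 0.00342), to 0.598 and 0.624 of the vehicle level. MXD3 had 9.18, 8.43 and 6.63 CPM in control vehicle and 16.5, 17.9 and 14.0 CPM in control estradiol libraries. In HOXB13 cells it had 10.1, 8.14 and 7.11 CPM in vehicle and 15.1, 14.9 and 11.97 CPM in estradiol, again without overlap. Its log2 fold change was 0.995 ± 0.18 in control cells (1.99-fold, adjusted p = 0.00150) and 0.72 ± 0.18 in HOXB13 cells (1.65-fold, adjusted p = 0.0138 by edgeR). The call for MXD3 in HOXB13 cells ended without HOXB13 vehicle library 3 (adjusted p = 0.0600) and without HOXB13 estradiol library 1 (adjusted p = 0.0620). In GENCODE 29 (GRCh38), 35.2% of the exon bases of MXD3 lie opposite exons of PRELID1, a mitochondrial lipid transfer gene, and the strand setting of the counting is not given. PRELID1 had 84.4 ± 19.8 and 116 ± 18.4 CPM in control cells in vehicle and estradiol (SD, n = 3), a log2 fold change of 0.46 (edgeR adjusted p = 0.101), and 0.40 in HOXB13 cells (adjusted p = 0.169); its part in the MXD3 counts was not tested.

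MXD1 and MXI1, the other 2 MXD repressors, did not pass. MXD1, which is known to rise during differentiation, had 4.85 to 7.72 CPM in control vehicle, 4.90 to 6.10 CPM in control estradiol, 5.86 to 6.80 CPM in HOXB13 vehicle and 4.74 to 7.20 CPM in HOXB13 estradiol libraries, with full overlap of the groups. Its log2 fold changes were −0.09 (95% interval −0.54 to 0.36) and −0.12 (−0.57 to 0.33). MXI1, a repressor with several alternative starts that the counts do not separate, had 12.8 to 17.5 and 16.3 to 21.6 CPM in control cells and 16.9 to 18.2 and 16.9 to 20.3 CPM in HOXB13 cells, in vehicle and estradiol. Its log2 fold changes were 0.21 (−0.12 to 0.54) and 0.11 (−0.22 to 0.43), so an increase of MXI1 like that of MXD3 in control cells lies outside both intervals.

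MNT, the broadly expressed repressor that competes with MYC for MAX, had 20.7, 20.3 and 20.2 CPM in control vehicle and 18.3, 17.0 and 13.9 CPM in control estradiol libraries. In HOXB13 cells it had 21.2, 21.4 and 18.4 CPM in vehicle and 17.5, 16.1 and 12.1 CPM in estradiol. The groups did not overlap in either genotype, yet the difference did not pass in control cells (log2 fold change −0.32 ± 0.15, edgeR adjusted p = 0.187) or in HOXB13 cells (−0.42 ± 0.15, adjusted p = 0.0878). With the replicate number as a block, MNT fell in both (adjusted p = 0.0287 and 0.00619). In GENCODE 29, 21.3% of its exon bases lie opposite the gene AC006435.1, which had 0 counts in every library.

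In the MLX branch, MLX had 67.3, 67.2 and 68.9 CPM in control vehicle and 69.3, 75.1 and 73.4 CPM in control estradiol libraries, and 61.4 to 71.2 and 67.5 to 76.0 CPM in HOXB13 cells. The groups did not overlap in control cells and overlapped in HOXB13 cells. Its log2 fold changes were 0.10 (95% interval −0.10 to 0.30) and 0.13 (−0.07 to 0.33), neither past the threshold. Of its exon bases, 29.7% lie opposite PSMC3IP, a recombination gene, which rose by 1.11 in control cells (adjusted p = 0.00296 by edgeR) and 0.85 in HOXB13 cells (adjusted p = 0.0184) on the log2 scale; its part in the MLX counts was not tested. MLXIP, the glucose-sensing partner, had 138, 96.1 and 127 CPM in control vehicle and 111, 88.1 and 99.1 CPM in control estradiol libraries. In HOXB13 cells it had 141, 122 and 136 CPM in vehicle and 115, 98.4 and 97.4 CPM in estradiol. The groups overlapped in control cells, through the low vehicle library 2, and not in HOXB13 cells. The log2 fold change was −0.28 ± 0.14 (SE) in control cells (edgeR adjusted p = 0.200) and −0.36 ± 0.14 in HOXB13 cells (adjusted p = 0.0989). With the replicate block MLXIP fell in both (adjusted p = 0.00693 and 0.000624), as it did without control vehicle library 2 (0.0279 and 0.0422) and without the 4 libraries numbered 2 (0.0177 and 0.00818). The block thus brought the called members to 2 that rose and 3 that fell in each genotype, where it called 34% and 30.5% of all tested genes (17.5% and 15.5% rose, 16.5% and 15% fell).

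**Figure D2:**
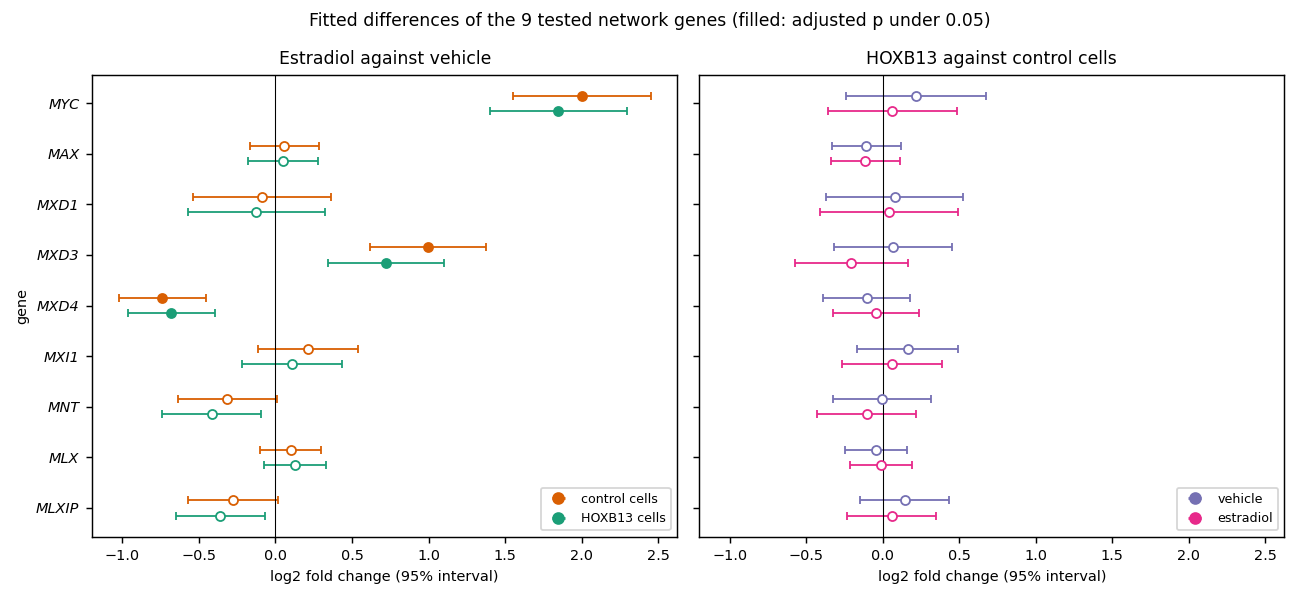
Fitted log2 fold changes (horizontal axes) with 95% intervals for the 9 tested network genes, for estradiol against vehicle in both genotypes on the left and for HOXB13 against control cells under both treatments on the right. Filled points passed the threshold: MYC and MXD3 to the right of 0 and MXD4 to the left in both genotypes, and none in the right panel.

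The number of MYC reads relative to those of each repressor rose within libraries, a ratio that does not depend on scaling between libraries. The mean log2 ratio of MYC to MXD4 reads went from −4.87 ± 0.11 to −2.14 ± 0.30 in control cells (SD, n = 3), a 6.63-fold difference, and from −4.59 ± 0.70 to −2.03 ± 0.49 in HOXB13 cells, 5.90-fold. For MNT the differences were 4.98-fold in control and 4.96-fold in HOXB13 cells, for MXD1 4.16-fold and 4.06-fold, and for MXI1 3.43-fold in both. MXD3, which rose with MYC, gave the smallest differences, 1.98-fold and 2.22-fold. For all 5 repressors, each estradiol library lay above each vehicle library of its genotype, although for MXD3 in HOXB13 cells the gap was only from 0.86 to 0.96 on the log2 scale. All 5 ratios share the MYC reads, which rose by themselves, while MXD1, MXI1 and MNT were not called in the main fit. They are therefore not 5 separate results. The ratios are given as a description and were not tested.

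**Figure D3:**
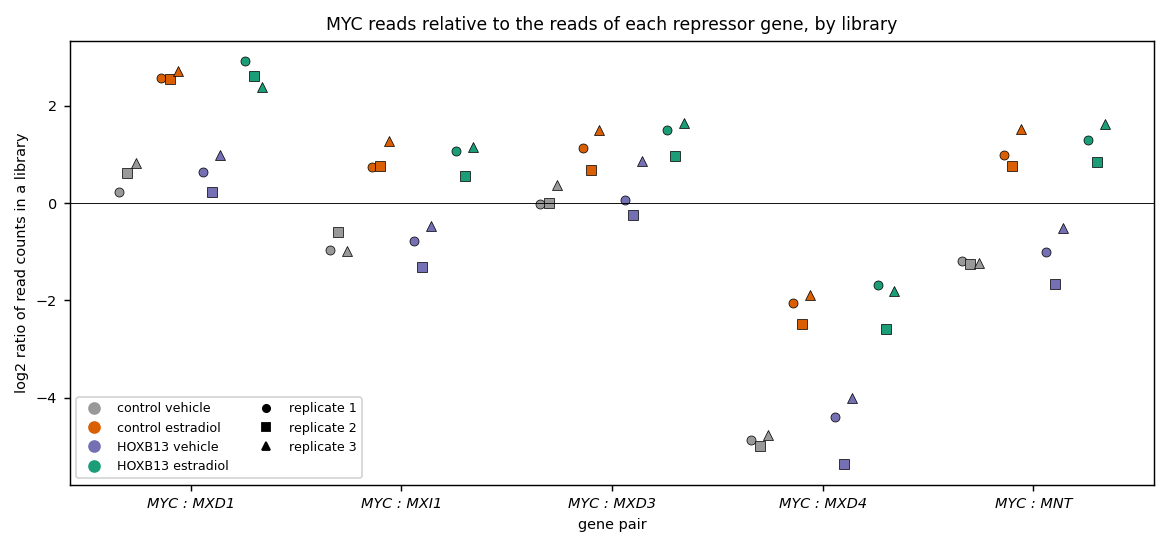
Log2 ratio of MYC read counts to the read counts of each repressor gene (vertical axis) in every library, by gene pair, with colours for the 4 groups and shapes for the replicate numbers. In each pair the estradiol libraries lie above the vehicle libraries of the same genotype, with the widest shift for MXD4 and the narrowest for MXD3.

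Levels of different genes can be set side by side only per length, here as CPM per kilobase of exon in GENCODE 29. This may not be the annotation used for counting, and it counts exons that T47D cells may skip. It also counts exon bases opposite other genes, most in MXD3, MLX and MNT. There the strand setting, which is not given, may affect the reads. In control vehicle cells the order was MXD4 (62.8 ± 4.51, SD, n = 3), MLX (26.2 ± 0.347), MLXIP (12.8 ± 2.31), MAX (11.5 ± 0.517), MNT (4.08 ± 0.0554), MXI1 (3.90 ± 0.644), MYC (2.90 ± 0.0983), MXD3 (2.45 ± 0.398), MXD1 (1.08 ± 0.266) and MYCN (0.109 ± 0.0152). Of the neighbours in this order, the mean ± SD of MLXIP overlapped that of MAX, that of MNT overlapped MXI1 and that of MYC overlapped MXD3, and the others were apart. With estradiol, MYC moved to 11.6 ± 1.84 in control and 12.1 ± 2.28 in HOXB13 cells, and its mean ± SD then overlapped those of MAX (11.97 ± 0.466 and 11.1 ± 1.07) and MLXIP (10.5 ± 1.20 and 10.99 ± 1.03). MXD4 remained the highest on this scale in estradiol, at 37.6 ± 1.67 and 36.5 ± 5.89.

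HOXB13 itself was not accompanied by a called difference in any network gene. In vehicle, 0 of the 9 tested members passed between HOXB13 and control cells by edgeR's quasi-likelihood test, 0 had an unadjusted p under 0.05, and 0 passed with DESeq2 or limma-voom; 0.0203% of all tested genes were called. In estradiol the corresponding counts were 0, 0 and 0, with 0.0135% of all tested genes called. With the replicate block 0 members were called in either treatment, against 0.405% of all tested genes in vehicle (0.189% higher and 0.216% lower in HOXB13 cells) and 0.392% in estradiol (0.142% and 0.25%). The CPM of the 2 genotypes overlapped for all 9 members in both treatments, where 7.14% and 9.88% of all tested genes did not overlap. MYC had a log2 fold change of 0.22 (95% interval −0.24 to 0.67) in vehicle and 0.06 (−0.36 to 0.48) in estradiol, MXD3 had 0.07 (−0.32 to 0.45) and −0.20 (−0.57 to 0.16), and MXD4 had −0.10 (−0.39 to 0.18) and −0.04 (−0.33 to 0.24). No interval reached beyond 0.67 in vehicle or 0.57 in estradiol to either side. Differences inside the intervals remain possible.

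The estradiol responses of the 2 genotypes were compared directly as an interaction, and 0 of 9 members passed, with 0 at an unadjusted p under 0.05 and 0% of all tested genes called. DESeq2, limma-voom and the fit with the replicate block also called 0 members. The difference in log2 fold change, HOXB13 minus control cells, was −0.15 for MYC (95% interval −0.77 to 0.47), −0.27 for MXD3 (−0.80 to 0.26) and 0.06 for MXD4 (−0.34 to 0.46). The members' intervals reached up to 0.80, so these data do not show equal responses; they limit how far the responses can differ.

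Of 20 MYC coactivators and partners, 4 rose and 0 fell in control cells, and the same 4 rose in HOXB13 cells (medians −0.01 and −0.08, next to −0.01 for all tested genes in both); 8.65% and 7.22% of all tested genes rose. They were KAT2A, the acetyltransferase GCN5 (35.3 ± 3.86 to 52.3 ± 4.92 CPM in control cells), the ATPase RUVBL1 (61.0 ± 9.74 to 89.4 ± 7.99), WDR5, a chromatin adaptor that binds MYC (62.2 ± 3.23 to 83.0 ± 2.65), and ACTL6A, an actin-related chromatin subunit (107 ± 5.84 to 142 ± 8.04). Of 16 genes of the SIN3 corepressor that MXD proteins recruit, only the histone-binding subunit RBBP7 passed by edgeR, rising in both genotypes (log2 fold change 0.46 and 0.51). Medians for this list were 0.05 and 0.08. With the replicate block, 5 coactivators rose in each genotype and 2 and 3 fell. Of the SIN3 genes, 3 rose and 3 fell in control cells and 1 rose and 2 fell in HOXB13 cells. The block called 17.5% of all tested genes as risen and 16.5% as fallen in control cells. In HOXB13 cells it called 15.5% as risen and 15% as fallen. In a list of 21 genes that control the turnover of MYC protein, 3 rose and 2 fell in control cells and 3 rose and 1 fell in HOXB13 cells (medians 0.06 and 0.08), where 6.72% and 6.38% of all tested genes fell. KIAA1524, which encodes CIP2A, an inhibitor of the phosphatase that destabilises MYC, rose from 11.5 ± 0.679 to 23.0 ± 3.40 CPM in control and from 12.8 ± 1.67 to 22.6 ± 2.45 CPM in HOXB13 cells. The mitotic kinase genes PLK1 (0.84 and 0.61) and AURKA (0.66 and 0.60) also rose. FBXO32, an F-box gene known as atrogin-1, fell from 251 ± 36.3 to 76.9 ± 7.25 CPM and from 215 ± 21.7 to 73.2 ± 1.36 CPM, with no overlap between groups. With the replicate block, 7 genes of the turnover list rose in each genotype, and 4 fell in control and 2 in HOXB13 cells, next to the same block shares.

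Genes known to be raised by MYC rose in large part. Of 67 tested genes of this list of 70, 45 rose and 0 fell in control cells (median log2 fold change 0.49, next to −0.01 for all tested genes), and 39 rose and 0 fell in HOXB13 cells (median 0.48), next to 8.65% and 7.22% of all tested genes that rose; 36 rose in both. The list holds genes of ribosome production and DNA replication that are also known estradiol or E2F targets, and its count does not single out MYC. Among genes of the list called in both genotypes, the largest mean increases were in CDC25A, a phosphatase of cell cycle entry (10.1 ± 1.89 to 23.7 ± 2.57 CPM in control cells and 11.8 ± 1.85 to 27.3 ± 2.09 CPM in HOXB13 cells), the helicase gene MCM5 (54.9 ± 6.28 to 130 ± 15.03 and 52.8 ± 4.48 to 117 ± 10.6), the transcription factor gene E2F2 (14.2 ± 0.936 to 33.7 ± 4.52 and 15.5 ± 2.72 to 31.4 ± 2.27) and PUS7, an RNA pseudouridine synthase (5.17 ± 0.572 to 12.4 ± 2.08 and 5.68 ± 0.258 to 10.9 ± 1.60). The count was 29 without control vehicle library 1, in control cells, and 24 without HOXB13 vehicle library 1, in HOXB13 cells. With the replicate block 59 rose and 1 fell in each, next to 17.5% and 15.5% of all tested genes that rose. The gene that fell, named because of its value, was HK2 (edgeR adjusted p = 0.00501 and 0.00739 with the block).

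Of 18 tested genes known to be repressed by MYC, 1 rose and 2 fell in control cells, where 8.65% of all tested genes rose and 6.72% fell. In HOXB13 cells 0 rose and 5 fell, where 7.22% of all tested genes rose and 6.38% fell. The medians were −0.03 and −0.10, next to −0.01 for all tested genes in both. NDRG1, a stress-responsive gene repressed by MYC in other cells, went from 27.4 ± 4.43 to 7.10 ± 1.54 CPM in control and from 34.4 ± 4.53 to 8.83 ± 1.49 CPM in HOXB13 cells. CEBPA, a differentiation factor, fell by 0.76 and 0.69 on the log2 scale (edgeR adjusted p = 0.00732 and 0.0161). The other called genes were named because of their values. THBS1, an antiangiogenic matrix gene, rose in control cells (1.64, edgeR adjusted p = 0.0101) and had 1.21 in HOXB13 cells (adjusted p = 0.0515). In HOXB13 cells CDKN2B (−0.65, adjusted p = 0.0494), KLF4 (−0.59, adjusted p = 0.0224) and NDRG2 (−0.44, adjusted p = 0.0357) fell. They had −0.53, −0.31 and −0.26 in control cells (adjusted p = 0.0960, 0.213 and 0.191). No gene of the list passed the interaction between genotype and estradiol. The number that fell in HOXB13 cells was 1 to 3 without control estradiol library 3 or any single library of the HOXB13 cells other than vehicle library 3, and with the block 2 rose and 6 fell in control cells and 1 rose and 6 fell in HOXB13 cells, where the block called 17.5% and 15.5% of all tested genes as risen and 16.5% and 15% as fallen.

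Of 7 tested genes that MLXIP and MLX or their relative MLXIPL are known to raise with glucose, 2 rose and 1 fell in control cells and 2 rose and 2 fell in HOXB13 cells (medians −0.45 and −0.27). Of all tested genes, 8.65% rose and 6.72% fell in control cells and 7.22% and 6.38% in HOXB13 cells. TXNIP, the thioredoxin-interacting inhibitor of glucose uptake that is their best known target, had 94.4, 79.8 and 71.7 CPM in control vehicle and 55.9, 38.7 and 41.9 CPM in control estradiol libraries. In HOXB13 cells it had 70.4, 95.9 and 67.8 CPM in vehicle and 36.0, 54.4 and 36.3 CPM in estradiol, so the groups did not overlap in either genotype. It fell by 0.85 ± 0.19 (SE) and 0.89 ± 0.19 on the log2 scale (edgeR adjusted p = 0.00788 and 0.00715). Its close relative ARRDC4 gave −0.51 (adjusted p = 0.275) and −0.27 (adjusted p = 0.620) on the log2 scale. PFKFB3, a regulator of glycolysis, rose by 1.57 and 1.28 and KLF10 by 0.90 and 0.88. FASN, the fatty acid synthase, named because of its value, fell in HOXB13 cells (−0.58, edgeR adjusted p = 0.0330) and had −0.45 in control cells (adjusted p = 0.0866), and its interaction between genotype and estradiol did not pass. With the block 2 rose in each genotype, next to 17.5% and 15.5% of all tested genes, and 4 fell in control and 3 in HOXB13 cells, next to 16.5% and 15%. HK2, which is also on the MYC-induced list, was among those that fell in both, so it is counted in both lists.

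**Figure D4:**
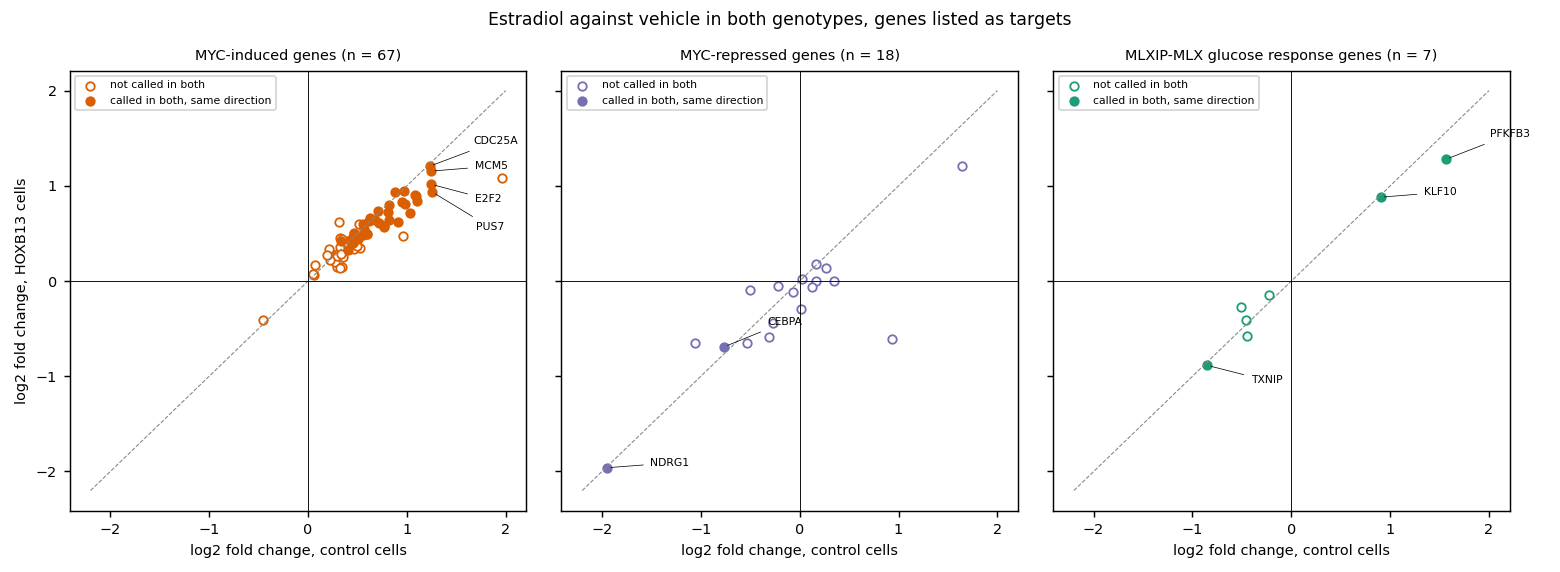
Log2 fold change with estradiol in control cells (horizontal axes) and HOXB13 cells (vertical axes) for the tested genes listed as MYC-induced, MYC-repressed and MLXIP-MLX responsive, with a dashed line of equal change. Of the 67 MYC-induced genes, 66 lie above 0 on both axes, whereas the other lists spread to both sides.

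Over the 12 libraries, the genes whose log2 CPM followed MYC most closely, among the 12108 genes whose log2 CPM averaged 1 or more, were RAPGEFL1 (Pearson r = 0.991), the purine synthesis gene PAICS (0.989) and E2F2 (0.989). For MXD3 they were PAQR4 (0.982), FAM198A (0.964) and PLEKHG5 (0.963), and for MXD4 the ephrin gene EFNA1 (0.990), the transcription factor gene CREB3L4 (0.985) and CAMK2N1 (0.983). As many as 510, 158 and 314 genes reached an r of 0.9 with MYC, MXD3 and MXD4. These values describe 12 libraries that share the same treatments, and any gene that responds to estradiol in the same way will have a high r.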

How the data were processed

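RNA of 12 T47D libraries was measured by sequencing. The authors deposited raw counts per gene symbol with 1 column per library. Tools in the submitters' processing notes are STAR, HTSeq, Picard and FastQC, and the builds are GRCh37 and hg19. The annotation and the strand setting were not stated in what was read here, and no coordinates come with the counts.

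Genes were kept by filterByExpr on the 4 groups (count of 10, total of 15) and scaled by TMM. CPM use the effective library sizes. Groups were fitted together in edgeR 4.0.16 (R 4.3.3) with the robust quasi-likelihood test, Benjamini-Hochberg adjusted over all 14799 tested genes at 0.05; SE is the log2 fold change over the root of its F statistic. Alternatives were DESeq2 1.42.0, limma-voom (limma 3.58.1), DESeq2 size factors, no filter, the replicate block, each library left out and all libraries numbered 2 left out. The code was tested on simulated data.

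Replicate numbers shared by groups were checked for pairing by correlating deviations from group means across genes. In the 4 comparisons between 2 groups r was 0.123 to 0.457, above the minimum of 0.1. Block values for members, and block counts for gene lists, therefore stand beside the results whose calls they change. Over all 18 pairs of the interaction the lowest was 0.0926. In each of the 4 comparisons the libraries numbered 2 gave the highest r (0.311 to 0.457). Deviations within a group cancel out, so a feature shared by these libraries alone would also raise r for the others. Pairing by number and such a feature cannot be told apart here. What a number stands for is not in the labels.

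Members and lists were chosen with earlier results of these data known. From other lists, up to 4 genes per direction were named, those with the largest mean change among genes called in both genotypes with log2 CPM of at least 1, and for each called member the 3 genes with the highest correlation. A called gene of the turnover list is not reported here by name.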

Additional observations from a re-analysis of the deposited data

How the results depend on the processing

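Of the members, MYC, MXD3 and MXD4 kept their direction in both estradiol comparisons under all 18 alternatives, and their calls in all except the 2 given for MXD3. Over the single-library omissions, MYC ranged from 1.90 to 2.12 in control and 1.64 to 2.06 in HOXB13 cells, and MXD4 from −0.80 to −0.70 and −0.82 to −0.53 (log2 fold change). Members called were 3 to 4 in control and 2 to 4 in HOXB13 cells without a library; with the replicate block they were 5 in each. Members called in the HOXB13 comparisons and the interaction were 0 throughout.

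All genes called for estradiol were 1478 to 2758 in control and 1228 to 2232 in HOXB13 cells without 1 library, 5032 and 4519 with the replicate block, and 3567 and 3285 without the 4 libraries numbered 2. For HOXB13 in vehicle they were 1 to 6 without 1 library, 62 with no filter, 20 with DESeq2, 6 with limma-voom, 60 with the block and 37 without the libraries numbered 2. In estradiol they were 30, 20, 5, 58 and 21 in that order, and for the interaction 4 with no filter and 1 without the libraries numbered 2. MYC-induced genes that rose were 29 to 51 in control and 24 to 42 in HOXB13 cells without 1 library, and 59 in HOXB13 cells with the block. Other calls of members were unchanged by the block, apart from MNT and MLXIP. The causes were not tested. Depth limits MYCN, at 0 to 7 counts per library.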

Other observations

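The 3 network genes outside the members, MYCL, MLXIPL and MGA, did not pass in any comparison. MYCL, a further MYC relative, had 5.26, 6.08 and 4.54 CPM in control vehicle and 3.96, 3.82 and 3.25 CPM in control estradiol libraries (log2 fold change −0.53, edgeR adjusted p = 0.241). In HOXB13 cells it had 6.20, 6.71 and 2.98 CPM in vehicle and 3.24, 3.70 and 2.22 CPM in estradiol (−0.79, adjusted p = 0.0859, and 0.00878 with the replicate block). MLXIPL, the relative of MLXIP known as ChREBP, had 0.23 and 0.28, and MGA, a large MAX partner, −0.14 and −0.08.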
